A study of Homo sapiens with 2 samples.

Results

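The S100 genes encode small calcium-binding proteins, and 10 of them were described here in human bronchial epithelial cells made to overexpress CBS. The members, S100A2, S100A4, S100A6, S100A8, S100A9, S100A10, S100A11, S100A13, S100A14 and S100A16, were taken by gene symbol from a table of 60619 genes, which holds 21 S100 genes in all. HBEC-3KT, an immortalized line of bronchial epithelium, had been transduced for 4 to 8 hours with a pLenti6 lentivirus that carried human CBS or with the pLenti6 virus alone. Selection of both cultures used 10 µg/mL blasticidin over 4 to 5 days, the plates were coated with gelatin, and whether either was a pool or a clone is not given in the sources used here. CBS encodes cystathionine beta-synthase, an enzyme of homocysteine metabolism, and the design asked how its expression bears on Polycomb repressive complex 2, a silencing complex that methylates histones. Each group was 1 RNA sequencing library, so the differences below rest on a pair of cultures without replicates and carry no p-value.

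S100 proteins carry a pair of EF-hand motifs, the loops that hold calcium, and most work as dimers that bind a partner protein when calcium rises. Inside cells they act on annexins, myosin and other targets. Some are secreted and signal through the receptor RAGE or through TLR4 as alarm signals of stressed epithelium. Most S100 genes lie in a cluster on chromosome 1 beside the genes of the cornified envelope, and squamous epithelium expresses many of them strongly.

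All 10 members had fewer reads in the CBS library than in the empty-vector library. Their summed level was 4170 CPM (estimated read counts relative to the library total, scaled with TMM factors) with CBS and 6765 CPM with the empty vector, which is 61.6% of the control level. The log2 fold of the sum was -0.70, with an exact 95% interval of -0.71 to -0.69. Every interval given covers counting error only, and the spread between cultures is unknown. Without S100A2, the most abundant member, the log2 fold of the sum was -0.79 (-0.81 to -0.77). Of the 9 members above a filter on low counts, S100A8, S100A6 and S100A16 were at least 2-fold lower, where 5.28% of all genes were. S100A4, below the filter, was also at least 2-fold lower, on 6 against 31 counts, and no member was at least 2-fold higher.

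Sequences just before the start sites of 9 members are shown. The sequences are RefSeq's, on GRCh38.p14, and run from 35 to 6 bases before an annotated start, 5′ to 3′ on the gene's strand. Capitals mark matches to TATAA, the core of the TATA box that places transcription starts, or in S100A11 to TTGCNNAA, a C/EBP motif read on either strand. Where a gene had several annotated starts, the first with a TATAA is shown, and otherwise the first listed.
S100A8 (chr1:153391079-153391108, minus strand): aaccgcTATAAaaaggagctgcctctcagc
S100A9 (chr1:153357819-153357848, plus strand): gctgccTATAAatgccgagcctgcacagct
S100A4 (chr1:153545812-153545841, minus strand): ggggTATAAataggtcagacctctgggccg
S100A6 (chr1:153535997-153536026, minus strand): accgcTATAAggccagtcggactgcgacac
S100A13 (chr1:153627511-153627540, minus strand): gctgctTATAAacctcagccctgaggctcc
S100A14 (chr1:153616331-153616360, minus strand): cccaggTATAAgagctgagctcaggtgagc
S100A2 (chr1:153565850-153565879, minus strand): atgagaatgaggcctggcaccagtctccag
S100A11 (chr1:152037010-152037039, minus strand): gcTTGGGCAAggctgggccgggaagggcgt
S100A16 (chr1:153613143-153613172, minus strand): tccctttaacaagggcccaaccccagggcc

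TATAA within 50 bases before a start, on the gene's strand, was found in 6 of the 10 members and at 6 of their 16 annotated starts. Over all 35116 annotated promoters of the same length the share was 4.74%, and over all 27305 genes it was 5.96%. In each of the 6 members the match began 29 to 31 bases before the start. Members with a match had log2 folds from -1.78 in S100A4, which is below the filter, to -0.53 in S100A9. Those without had -1.05 in S100A16 to -0.40 in S100A10. Whether the match bears on the fold was not tested. TGANTCA, the motif of AP-1 factors such as FOS and JUN, was sought on both strands in the 250 bases before each start. It was found in S100A2 alone of the members and in 6.57% of all promoters, or 8.06% of genes. TTGCNNAA in the same window was found in S100A11 alone of the members and in 9.05% of all promoters, or 11.03% of genes. A match describes the letters only.

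The CBS library held 20785957 estimated counts and the control library 20433062. CBS itself had 3669 against 280 counts, a log2 fold of 3.59 (3.44 to 3.79), which matches the labels. CBSL, a near-identical copy that shares its reads, had 4378 against 343. The airway basal markers KRT5, TP63, ITGA6, CDH1, EPCAM, NGFR and KRT15 were all expressed in both libraries. Their sum was 4036 CPM with CBS and 5906 CPM with the empty vector, a difference that came mainly from KRT5, the keratin of basal cells, at 2552 against 4205 CPM. The median log2 fold of the 7 was -0.10. KRT5 was at -0.72 and KRT15 at -1.94 in log2 fold, while EPCAM was at 0.54 and NGFR at 0.93, and the part of this in the S100 values was not tested. Of 11 myeloid markers, listed because S100A8 and S100A9 are abundant in neutrophils and monocytes, PTPRC, LYZ, TYROBP and AIF1 had no count in either library. Their sum of 40.0 CPM with CBS and 125.5 CPM with the empty vector came mainly from CD68, a lysosomal protein, with 619 against 2259 counts. CD14 had 225 against 203 counts. The remaining markers had few reads, and each had fewer with CBS. ITGAM had 3 against 15 counts, FCER1G 4 against 14, CSF1R 1 against 5, MPO 0 against 2 and CSF3R 0 against 1. Of 8 fibroblast markers, COL1A2, COL3A1, DCN and LUM had no count, and the sum was 6.33 against 13.9 CPM, most of it COL1A1. In the authors' TPM values the fibroblast sum differed less, at 3.23 with CBS and 4.34 with the empty vector. In a bulk library, fewer cells that express a gene and less RNA per cell cannot be told apart.

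Levels between genes were compared in the TPM values of the authors, which allow for transcript length. S100A2 stood highest with 5710 TPM in the CBS library and 7714 TPM with the empty vector, rank 16 and rank 12 of all genes. It made up 51.6% and 47.8% of the TPM of the 10 members. The members together held 1.11% of all TPM with CBS and 1.62% with the empty vector. In the control library S100A6, S100A11, S100A14, S100A10, S100A16 and S100A9 followed, from 1981 TPM down to 905 TPM. S100A13, S100A8 and S100A4 were far lower, at 54.2, 34.9 and 3.86 TPM. With CBS the order of the 6 genes after S100A2 was S100A11, S100A14, S100A10, S100A6, S100A9 and S100A16, so that S100A6 dropped from the second place in the family to the fifth.

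**Figure D1:**
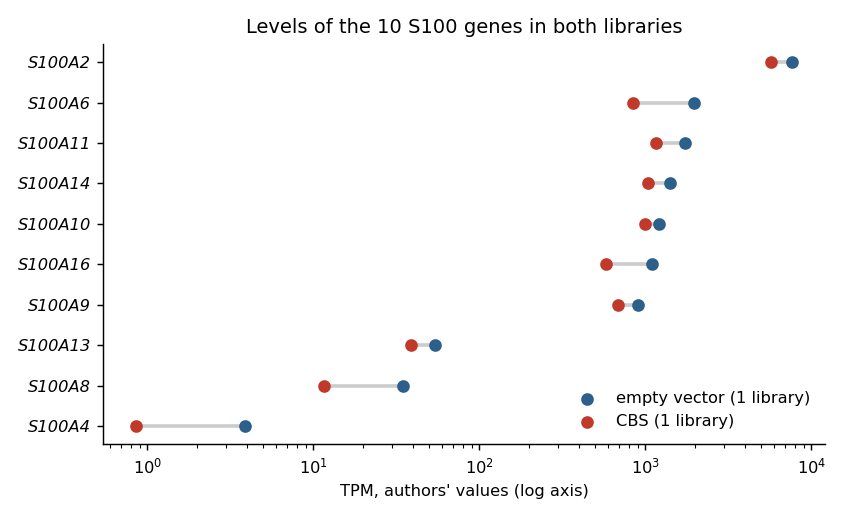
TPM of each of the 10 S100 genes (log axis) in the CBS library (red) and the empty-vector library (blue), with 1 library per group. Each red point lies to the left of its blue point, and the gap is widest for S100A4, S100A8 and S100A6.

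Calprotectin is the dimer of S100A8 and S100A9, an antimicrobial complex that withholds zinc and manganese from microbes and signals through TLR4 and RAGE. S100A8 (chromosome 1, 153390032 to 153391188) had 77 reads in CBS cells against 230 in control cells. It stood at 31.3% of the control level (interval 23.8 to 40.7) and had a log2 fold of -1.61 (-2.07 to -1.30). Log2 folds carry a prior count of 5, which draws low genes towards 0. S100A9 (153357854 to 153361027) had 5245 against 7053 counts, 69.5% of the control level (67.0 to 72.0), with a log2 fold of -0.53 (-0.58 to -0.47). Transcripts of the subunits were thus far from equal in both libraries, with 25.96 times as many TPM of S100A9 as of S100A8 in the control and 58.7 times as many with CBS. The ratio of S100A8 to S100A9, which does not depend on library scaling, was lower with CBS by a log2 difference of -1.15 (-1.55 to -0.77).

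Binding partners inside the cell are known for several members. S100A6, or calcyclin, which binds CACYBP, a factor of protein turnover, had the widest gap of the abundant members. S100A6 (153534599 to 153536244) had 7359 reads in CBS cells against 17408 in control cells, 39.5% of the control level (38.4 to 40.6). Its log2 fold was -1.34 (-1.38 to -1.30), and 2.70% of the 13304 genes above the filter on low counts had a lower one. CACYBP went the other way, with 2033 against 1303 counts, for a log2 fold of 0.54 (0.44 to 0.65). The ratio of S100A6 to CACYBP was 6.54 in TPM with CBS and 26.8 with the empty vector.

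S100A10, also called p11, has lost calcium binding and forms a tetramer with annexin A2 that gathers plasminogen at the cell surface. It had the smallest difference of the members. S100A10 (151982915 to 151994390) had 7983 against 9845 counts, a log2 fold of -0.40 (-0.44 to -0.36). ANXA2, its partner, had 62302 against 80543 counts, for a log2 fold of -0.47 (-0.48 to -0.45). Their TPM ratio was 0.321 in CBS cells against 0.303 in control cells. In counts the log2 difference of the ratio was 0.07 (0.02 to 0.11), so the gene and its partner were lower by similar amounts in these values. With the trend of folds on GC content and transcript length removed they were less alike, with S100A10 at -0.31 and ANXA2 at -0.57.

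S100A11, a partner of annexin A1, behaved otherwise. S100A11 (152032506 to 152047907) had 9220 against 13929 counts, for a log2 fold of -0.69 (-0.73 to -0.66), while ANXA1 had 7625 against 6616 counts, for a log2 fold of 0.11 (0.06 to 0.15). The ratio of S100A11 to ANXA1 was 3.20 in TPM with CBS and 5.51 with the empty vector. With the GC and length trend removed, S100A11 was at -0.57 and ANXA1 at -0.04.

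S100A2 is a known target of p63, the master factor of basal epithelium. S100A2 (153561108 to 153567890) had 37235 reads in CBS cells against 51248 in control cells. This is 67.9% of the control level (67.0 to 68.8), a log2 fold of -0.56 (-0.58 to -0.54). TP63 had 5136 against 4946 counts, and its interval held a ratio of 1, with a log2 fold of -0.04 (-0.10 to 0.01).

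S100A13 aids the export of FGF1 and interleukin 1 alpha, which lack a signal peptide. S100A13 (153618787 to 153634092) had 346 against 549 counts, 58.9% of the control level (51.3 to 67.5), with a log2 fold of -0.76 (-0.96 to -0.57). In log2(TPM + 1) its fold was -0.48. Its value is uncertain because 18.8% of the 50-base words in its transcripts also occur in an overlapping noncoding gene on the same strand, and it overlaps S100A1 on the other strand. FGF1 had 41 against 15 counts, for a log2 fold of 1.12 (0.47 to 2.31). IL1A had 7923 against 7892 counts, for a log2 fold of -0.09 (-0.14 to -0.05).

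S100A14 and S100A16, neighbours in the cluster, are epithelial members with weak or altered calcium sites. S100A14 (153614255 to 153616986) had 13221 against 18551 counts, for a log2 fold of -0.59 (-0.62 to -0.55). S100A16 (153606886 to 153613145) had 8212 against 15912 counts, 48.2% of the control level (46.9 to 49.5), with a log2 fold of -1.05 (-1.09 to -1.01). The S100A16 fold was near the 2-fold threshold and missed it with plain library totals (-0.98), in log2(TPM + 1) (-0.92) and after removal of the GC and length trend (-0.95). The ratio of S100A16 to S100A14 was lower with CBS by a log2 difference of -0.47 (-0.52 to -0.42), so adjoining genes did not differ by the same amount.

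S100A4, a marker of mesenchymal cells that binds nonmuscle myosin, was barely expressed. S100A4 (153543613 to 153550136) had 6 reads in CBS cells against 31 in control cells, and it was the only member below the filter of 10 counts in a library and a mean of 1 CPM. It stood at 18.1% of the control level (6.17 to 44.0). Its log2 fold was -1.78 (-4.02 to -1.18), but -2.28 with a prior count of 1 and -1.01 with a prior count of 20. MYH9, the myosin it binds, had 42065 against 36134 counts, for a log2 fold of 0.12 (0.10 to 0.14).

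**Figure D2:**
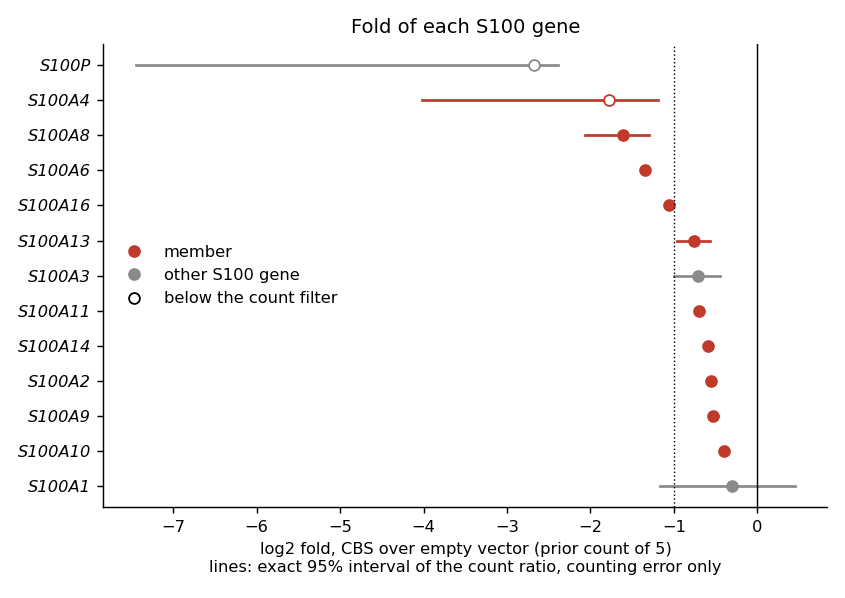
Log2 fold of CBS over empty vector for each S100 gene with at least 10 counts in 1 library and counts in both, with lines for the exact 95% interval of the count ratio (counting error only) and a dotted line at 2-fold lower. Members (red) lie between -1.78 and -0.40, and open symbols mark genes below the count filter.

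Of the 9 members above the filter, 3 were at least 2-fold lower with an interval below a ratio of 1, against 5.28% of the 13304 genes. None was at least 2-fold higher, against 1.41%. At a threshold of 1.5-fold, 6 of the 9 were lower, against 12.9%. The interval lay below a ratio of 1 for 9 of 9, against 31.1% of all genes, but abundant genes have narrow intervals. Among the 1390 genes with a mean of at least 100 TPM, 45.4% had such an interval and 9.57% were at least 1.5-fold lower. The members at that level numbered 7, of which 7 and 4 met these criteria. The median log2 fold of the 9 members was -0.69, beside 0.00 for all genes above the filter and -0.02 for those with a mean of at least 100 TPM. The share of all genes with an interval above a ratio of 1 is not given here. These counts describe 2 libraries, not the conditions.

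Members had richer GC content and shorter transcripts than other genes. The longest transcript of a member had a median GC content of 55.2% and a median length of 876.5 bases, against 48.1% and 3521 bases for all genes above the filter. With the trend of folds on both removed, the member median was -0.57, S100A6 was at -1.09, S100A8 at -1.51 and S100A10 at -0.31.

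The other 11 S100 genes were little expressed, with 9.90 CPM in all with CBS and 18.4 CPM with the empty vector. S100A3, a cysteine-rich member of hair and skin, had 180 against 277 counts, for a log2 fold of -0.70, or 60.7% of the control level (50.04 to 73.5). S100A1, a regulator of muscle calcium release, had 26 against 31 counts, and its interval held a ratio of 1 with a log2 fold of -0.30 (-1.16 to 0.45). S100P, a member outside the cluster on chromosome 4, had 2 against 38 counts, 4.92% of the control level (0.575 to 19.0). S100A12, which like calprotectin is abundant in neutrophils, had 0 against 12 counts. The interval of its ratio reached up to 33.6% of the control level. S100A7A, S100A7L2, S100B, S100G and S100Z had no count in either library, which allows up to 0.141 CPM with CBS and 0.151 CPM with the empty vector. S100A5 and S100A7 had fewer than 10 counts in each. The differences of S100P and S100A12 thus pointed the same way as those of the members but rested on few reads.

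Genes around the cluster were compared with the members. Above the filter, 27 genes that are not S100 genes lay within 500 kb of a member. The interval was below a ratio of 1 for 10, against 31.1% of all genes, above it for 7 and held it for 10. The 4 that lay inside the 1651 kb from S100A10 to S100A13 had log2 folds from -2.32 to -0.31. IVL, which encodes the envelope protein involucrin, had 36 against 43 counts and an interval that held a ratio of 1 (-1.03 to 0.32). Of the others, SPRR1B, a cornified envelope protein, had 10 against 66 counts, for a log2 fold of -2.32 (-3.95 to -1.85). FLG, which encodes filaggrin, a long protein with an S100 domain at its start, had 12 against 63 counts, for a log2 fold of -2.08 (-3.52 to -1.59). SPRR1B and FLG reached the filter's mean of 1 CPM only through the control library, so a low fold is partly built in. Another of the 4, ENSG00000238279, overlaps S100A6 on the other strand and had 24 against 41 counts. As the strand setting is not known, some of its reads may come from S100A6. Of 3 more that overlapped S100A13 and ran past the end of the members' span, ENSG00000271853 was at -0.82, ENSG00000272030 at -0.64 and CHTOP at 0.03. The 20 that overlapped neither the span nor a member had a median of -0.00070, with 6 intervals below, 7 above and 7 that held a ratio of 1, and none was at least 2-fold lower or higher. Among those with at least 100 counts, THEM4, a thioesterase, was at 0.61 (0.41 to 0.83), and ILF2, an RNA-binding factor, was at 0.55 (0.48 to 0.62). At the low end were SLC27A3, a fatty acid transporter, at -0.58 (-0.77 to -0.39) and the ribosomal protein gene RPS27 at -0.41 (-0.45 to -0.36).

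**Figure D3:**
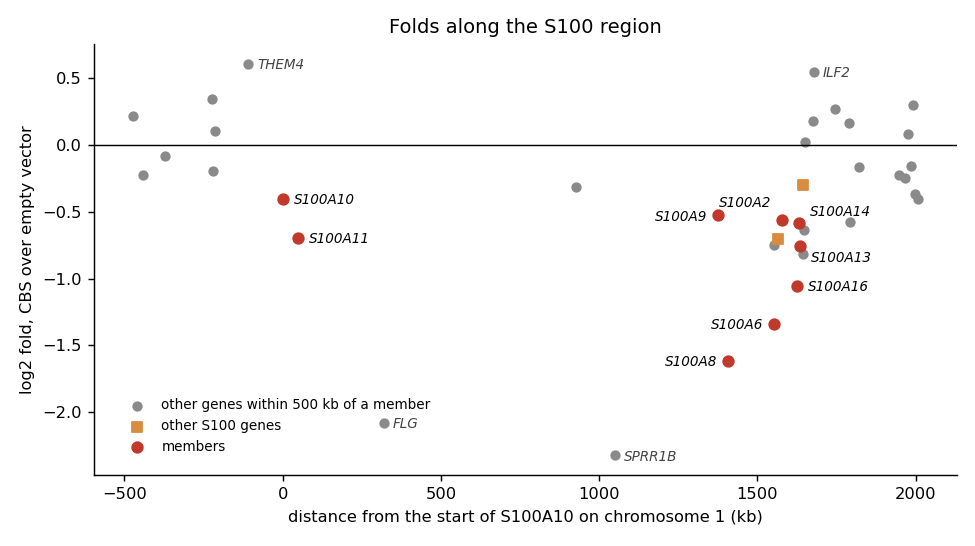
Log2 fold of each gene above the filter within 500 kb of a member, by distance in kb from the start of S100A10 on chromosome 1. Members (red) lie below 0 throughout, and the grey genes that overlap neither the members' span nor a member lie on both sides of 0, from -0.58 to 0.61.

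Genes for other EF-hand proteins had no such common direction. Of 45 listed, 36 passed the filter. Their median log2 fold was -0.01. The interval was below a ratio of 1 for 14, against 31.1% of all genes, above it for 11 and held it for 11. EFHD2, an actin-binding protein, was at -0.81 (-0.86 to -0.75), and CIB1, a calcium- and integrin-binding protein, at -0.40 (-0.50 to -0.31). RCN2, a reticulocalbin of the secretory pathway, was at 0.51 (0.38 to 0.63) and GCA, grancalcin, at 0.45 (0.14 to 0.80), but GCA was at 0.03 in log2(TPM + 1). CALML3, a calmodulin-like protein of stratified epithelium with 21 against 86 counts, was the only EF-hand gene of the list that was at least 2-fold lower.

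Receptors of secreted S100 proteins were split. Of 10 listed, 7 passed the filter, and their median log2 fold was -0.04. TLR4, the receptor of calprotectin on sensing cells, had 112 reads in CBS cells against 31 in control cells. Its log2 fold of 1.61 (1.17 to 2.38) was the only 2-fold difference among the 7. In log2(TPM + 1) the fold was 0.88 and under 2-fold, but the added 1 is large beside its 1.65 TPM with CBS and 0.44 TPM with the empty vector. LY96, the coreceptor that TLR4 needs for endotoxin, had 1 against 2 counts, and the adaptor MYD88 was at 0.13 (-0.02 to 0.29). AGER, which encodes RAGE, had 80 against 129 counts, for a log2 fold of -0.75 (-1.21 to -0.37). BSG, or basigin, a receptor of S100A9, was by far the most abundant, with 19091 against 22237 counts, for a log2 fold of -0.32 (-0.35 to -0.29).

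For 21 partners inside the cell the median log2 fold was -0.02. The interval was below a ratio of 1 for 3, against 31.1% of all genes, above it for 9 and held it for 9. Besides ANXA2, the lower ones were IL1A and AHNAK, a giant scaffold that binds S100A10 with annexin A2, at -0.50 (-0.52 to -0.47). Annexins had a median of -0.09 over 12 genes. ANXA10 was at -0.63 (-0.97 to -0.34), ANXA8L1, a near copy of ANXA8 that shares reads with it, at -0.46 (-0.54 to -0.38) and ANXA6 at 0.47 (0.30 to 0.64). ANXA8 itself, which had more reads than ANXA8L1, was at -0.27 (-0.32 to -0.22). ANXA9, with 17 against 37 counts, was the only annexin at least 2-fold lower.

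Genes of plasminogen activation, the process that the S100A10 and annexin A2 tetramer serves, had a median of -0.47 over 7 genes. By their intervals 5 were lower and 2 higher, where 31.1% of all genes were lower. Among genes with a mean of at least 100 TPM the share lower was 45.4%. PLAUR, the urokinase receptor, was at -0.53 (-0.67 to -0.40), and SERPINB2, an inhibitor of plasminogen activators, at -0.53 (-0.72 to -0.35). PLGRKT, a plasminogen receptor, was at 0.60 (0.39 to 0.83).

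Transcription factors that are known to act on S100 genes had a median of -0.44 over 11 genes, of which 8 were lower by their intervals and 3 held a ratio of 1, where 31.1% of all genes were lower. With the GC and length trend removed the median was -0.18. The list was written with earlier results of these libraries known. FOS, an AP-1 subunit, had 319 against 1968 counts, for a log2 fold of -2.70 (-2.90 to -2.55), and its partner JUN was at -0.54 (-0.62 to -0.45). KLF4, a factor of epithelial differentiation, was at -1.70 (-2.04 to -1.44), and CEBPB, which binds the promoters of S100A8 and S100A9 in myeloid cells, was at -0.77 (-0.83 to -0.71). Whether any of these factors bears on the S100 genes here was not tested.

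**Figure D4:**
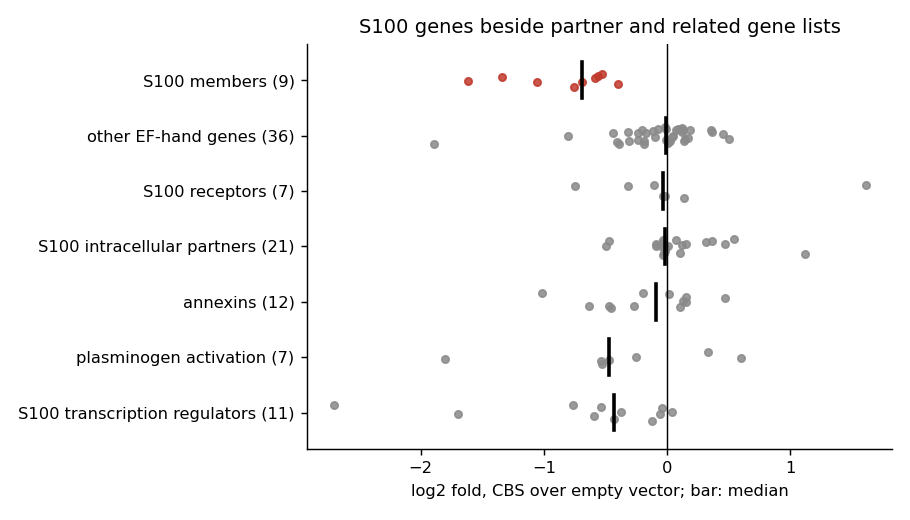
Log2 fold of each gene above the filter, by list, with the number of genes in brackets and a bar at the median. The 9 S100 members lie below 0, while EF-hand genes, receptors, partners and annexins have medians between -0.09 and -0.01. Genes of plasminogen activation and the transcription regulators have lower medians, at -0.47 and -0.44.

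The direction held under each way of processing the counts that was tried. Each way reused the same 2 libraries, and a prior count cannot reverse a fold, so this adds no evidence on the conditions. The 10 members stayed below 0 in every alternative that gave a value, and S100A10 was the closest to 0 in each setting plotted.

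**Figure D5:**
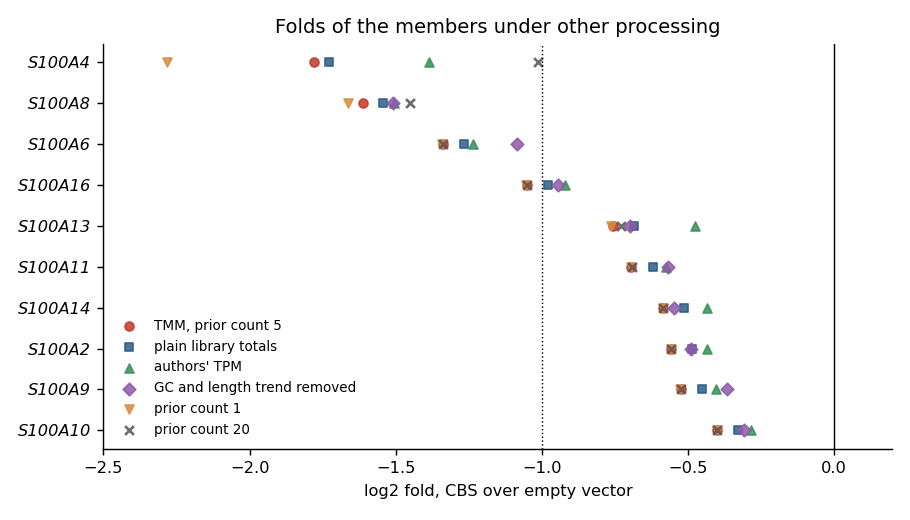
Log2 fold of each member with TMM scaling and a prior count of 5 (red) and under 5 other settings, with a dotted line at 2-fold lower. S100A4 moves most, from -2.28 to -1.01, and S100A16 crosses the 2-fold line.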

How the data were processed

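Expected counts per gene, which need not be whole, and TPM values were deposited by the authors. The submitters' processing notes name Trimmomatic 0.39, STAR 2.6.1d, RSEM 1.3.2 and GRCh38, without roles. The annotation release, strand setting and read layout are not given in the sources used here. Columns were matched to samples by their titles, 1 library per group.

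Counts were rounded, and genes with at least 10 counts in 1 library and a mean of 1 CPM were kept. TMM factors (edgeR 4.0.16, R 4.3.3, no model fitted) were 1.03 for CBS and 0.975 for the empty vector. Intervals are exact 95% intervals of the count ratio (Clopper-Pearson, conditional on the sum) without the prior count. Intervals of a ratio between genes are exact conditional ones for S100A8 with S100A9 and normal ones on the log scale for the others. Reads are not independent molecules, so intervals may be too narrow. The fold and interval calculation was tested on simulated Poisson counts. These hold counting error alone, so the test says nothing of the spread between cultures.

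The members and gene lists were chosen with earlier results of these data known. The text names all members, other S100 genes with at least 10 counts, up to 4 genes per list with the largest folds and at least 100 counts, and the 2 highest and 2 lowest neighbours. Named after their values were seen were FGF1, IL1A, TP63, ANXA1, ANXA8, MYH9, LY96, CALML3, ANXA9, FLG, SPRR1B, IVL, ITGAM, FCER1G, CSF1R, MPO and CSF3R. So were the genes that overlap S100A6 or S100A13, the gene pairs and the promoter motifs. Of 11 S100 pseudogenes listed, 2 were in the table, with 1 count in all. Coordinates are those of the deposited table, on GRCh38, and those of 20 of the 21 S100 genes equal GENCODE 29 (not S100A13). GC content, length, strand and shared 50-base words come from GENCODE 29. RefSeq promoters were found for 10 of 10 members by symbol, and the first 15 transcribed bases of 14 of their 16 starts lie in a GENCODE 29 transcript. Alternatives were DESeq2 1.42.0 size factors, plain totals, TPM, prior counts of 1 and 20, other filters and thresholds, and removal of the GC and length trend by lowess (span 0.3, statsmodels 0.14.6). Some genes that the naming rule covers, and 1 start site, are not reported here.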

Additional observations from a re-analysis of the deposited data

How the results depend on the processing

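No paired analysis was possible because each group held 1 library. Of 376 alternative values of single genes, 304 moved by no more than the counting error, 72 moved by more and none changed the sign of a gene at least 2-fold apart. The median log2 fold of the members was -0.62 with plain library totals, -0.48 in the authors' TPM and -0.57 with the GC and length trend removed. The log2 fold of their sum was -0.62 with plain totals, -0.54 in TPM, -0.66 without a filter and -0.72 with a filter of 100 counts. Members at least 2-fold lower numbered 3, or 2 with plain totals, in TPM and with the trend removed, 4 without a filter, 6 at a threshold of 1.5 and 0 at 4. Over all genes, 703 were lower and 188 higher. These were 377 lower in TPM, 121 higher with a prior count of 20, 1221 and 466 without a filter, 460 and 112 with a filter of 100 counts, 1712 and 934 at a threshold of 1.5, and 105 and 23 at 4. The filters and thresholds change which genes are counted. The filters also moved single members, with S100A2 at -0.56 in the main setting, -0.52 without a filter and -0.58 with a filter of 100 counts. The median log2 fold of all genes above the filter moved too. It was 0.07 with plain totals and 0.09 in TPM, beside 0.00 in the main setting. Plain totals leave out the TMM factors, which moves all genes with many reads upward by nearly the same amount. For the remaining settings other than filters and thresholds the cause was not tested. Adding the pseudogene reads left S100A11 at -0.69. For S100A10 that alternative gave no value, because its pseudogenes were matched to no row. Depth limits S100A4, S100P, S100A12, S100A7 and S100A5, which had few reads.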
